A study of Mus musculus with 4 samples.

Results

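The genes described here are 10 transcription factor genes of the forebrain and the eye field, namely Hesx1, Six3, Rax, Lhx2, Pax6, Fezf1, Fezf2, Foxd4, Otx1 and Otx2, out of 39179 genes counted by RNA sequencing. They were chosen by name and by their CPM and group difference in these same embryos, so their levels, folds and test calls are given as a description of the chosen genes and support nothing further. RNA was taken from 4 chimeric mouse embryos, each kept as a library of its own and staged at E7.75. All 4 grew from 8-cell hosts of an ARC x RLZRFP cross that had received embryonic stem cells (ESCs) kept in 2i medium, and all were exposed to doxycycline at 2 mg/mL, with 5% sucrose, in the mothers' water for 24 hours. In 2 embryos the ESCs carried FLAG-Lhx1, named for the LIM homeodomain factor LHX1 and the FLAG tag, and in the other 2 they carried FLAG-Lhx1-mt, also written FLAG-Lhx1-Δ. The embryos were collected at E8.5 and lagged by about a day. The labels do not say what the Δ stands for, which promoter drives the transgene or how many ESC clones were used. Each embryo kept host cells beside the ESC descendants, and no uninduced embryo was analysed here.

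The forebrain and the eyes arise from the front of the neural plate. Otx2 is on in the whole epiblast before gastrulation and then becomes restricted to the head, where it is needed for forebrain and midbrain, and Otx1 is its close relative. Hesx1, Six3, Rax, Lhx2 and Pax6 are homeobox genes of the anterior plate: Six3 represses WNT signalling in the forebrain, and Rax, Pax6, Six3 and Lhx2 belong to the network that sets up the eye field. Fezf1 and Fezf2 encode related zinc finger repressors of the prospective forebrain, and Foxd4 encodes a forkhead factor of early neural ectoderm. LHX1 is known for its role in the head organizer, and mice without it lack a head.

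LIM homeodomain factors are known to bind DNA around the core TAAT, often as the palindrome TAATTA. Stretches before the RefSeq gene starts of Hesx1, Six3 and Fezf1, whose levels did not overlap between the groups, and of Otx2, whose levels overlapped, are shown with TAAT or ATTA in capitals. Each stretch runs from 220 to 101 bases before the start and was read from RefSeq (GRCm38.p6), and holds no exon annotated in GENCODE. Those of Hesx1, Six3 and Otx2 lie inside the GENCODE span of the gene, which reaches further upstream than the RefSeq start shown, and that of Fezf1 lies outside it. The Hesx1 stretch is at chr14:27000142-27000261 on the plus strand, that of Six3 at chr17:85620614-85620733 on the plus strand, that of Fezf1 at chr6:23248365-23248484 on the minus strand and that of Otx2 at chr14:48667745-48667864 on the minus strand.
Hesx1: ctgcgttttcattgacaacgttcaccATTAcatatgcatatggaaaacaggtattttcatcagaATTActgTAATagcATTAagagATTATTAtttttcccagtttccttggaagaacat
Six3: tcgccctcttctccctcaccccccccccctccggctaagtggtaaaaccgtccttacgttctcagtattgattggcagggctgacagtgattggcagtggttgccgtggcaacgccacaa
Fezf1: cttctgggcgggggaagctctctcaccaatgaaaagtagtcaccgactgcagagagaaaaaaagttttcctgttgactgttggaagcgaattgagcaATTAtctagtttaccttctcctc
Otx2: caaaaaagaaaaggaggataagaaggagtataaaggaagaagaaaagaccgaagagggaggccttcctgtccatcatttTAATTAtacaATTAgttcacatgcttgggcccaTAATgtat
The Hesx1 stretch held 6 such cores, that of Otx2 held 4, that of Fezf1 1 and that of Six3 0. The Otx2 stretch holds TAATTA, which begins 141 bases before the start. The table of promoters, which reach from 250 bases before to 50 after a start, held 13 windows for 8 of the genes. TAATTA stood in 2 of the 4 Otx2 windows and in no window of the other 7 genes, against 5.29% of all 32851 windows. TAATCC, the motif bound by OTX factors (GGATTA on the other strand), stood in 1 Otx2 window alone among the 13 (7.06% of all windows), and AACAAT, bound by SOX factors (ATTGTT on the other strand), in 0 of 13 (10.7%). The 4-letter core TAAT is common, and was in 11 of the 13 windows and 58.0% of all windows on either strand; this core was chosen for display after the sequences were seen, and every TAATTA also counts as TAAT. These matches describe letters in short windows and show no binding.

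Sequencing gave 21267116 to 30434442 counts per library, and 3 counts stand for 0.0959 to 0.153 counts per 1000000 counts after TMM scaling (CPM). Lhx1 itself was at 129 and 114 CPM in the FLAG-Lhx1 embryos and 126 and 98.5 CPM in the FLAG-Lhx1-mt embryos. Its counts pool transgene and endogenous transcripts, so they do not check which form an embryo carried. Differences between the groups are given as log2 folds, FLAG-Lhx1 over FLAG-Lhx1-mt, with standard errors (SE) from edgeR's quasi-likelihood fit over all 15822 genes that passed a filter on low counts. A gene of another list counts as changed at an adjusted p under 0.05. The RNA is that of whole embryos, so more cells of a type and more RNA per cell cannot be told apart. For 1 gene in 2 against 2 embryos, the smallest exact two-sided permutation p is 0.333.

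Hesx1, a homeobox repressor needed for the forebrain and the pituitary, had 135 CPM in FLAG-Lhx1 replicate 1 and 121 CPM in replicate 2. In FLAG-Lhx1-mt replicates 1 and 2 it had 13.2 and 23.2 CPM. Values below keep this order, and the replicate numbers are not stated to pair embryos of the groups. Both FLAG-Lhx1 embryos were far above both FLAG-Lhx1-mt embryos. The log2 fold was 2.80 ± 0.22 (SE), which is 6.98-fold. It was 2.46 without FLAG-Lhx1-mt replicate 1 and 3.26 without replicate 2. Six3 had 10.0 and 10.1 CPM in the FLAG-Lhx1 embryos against 1.59 and 2.14 CPM in the FLAG-Lhx1-mt embryos. The groups did not overlap, and the 2 embryos of each were close to each other. Its log2 fold was 2.42 ± 0.30 (SE), or 5.36-fold. Hesx1 (ENSMUSG00000040726) lies on chromosome 14 at 26994416 to 27002329 and Six3 (ENSMUSG00000038805) on chromosome 17 at 85613608 to 85629302 of GRCm38. Of the exon bases of Six3, 5.03% also belong to genes of the opposite strand.

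**Figure D1:**
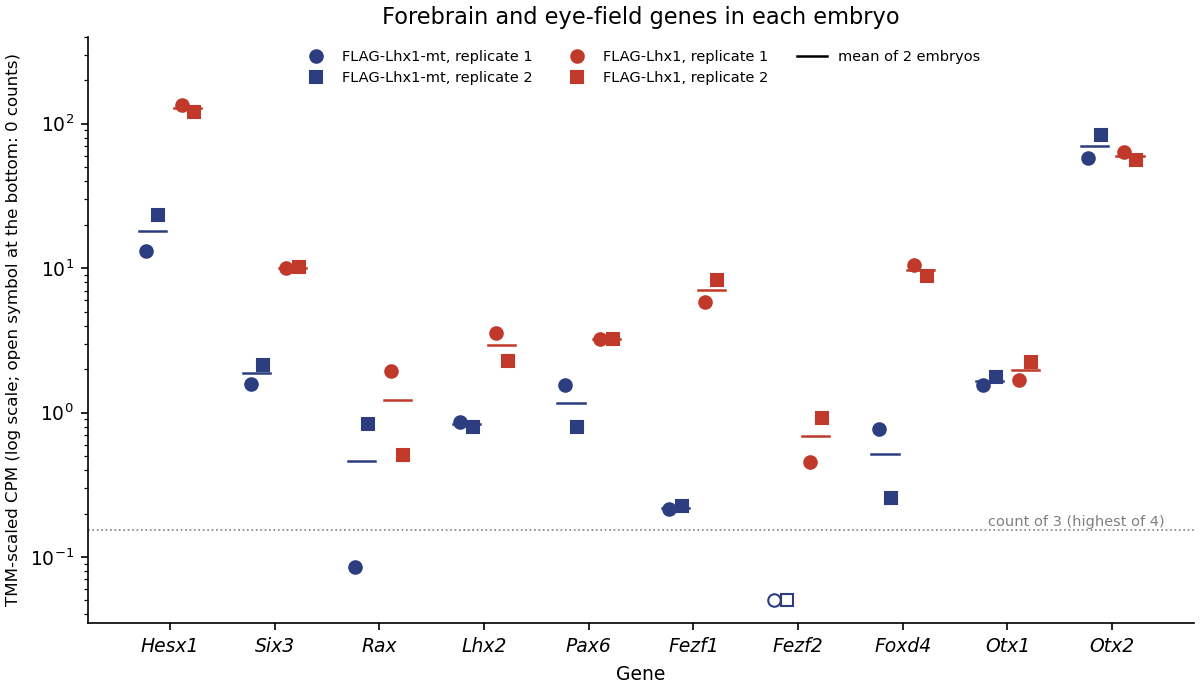
Level of each of the 10 genes in each embryo, as TMM-scaled CPM on a log axis, with a bar at the mean of the 2 embryos of a group. The FLAG-Lhx1 embryos lie above both FLAG-Lhx1-mt embryos for 7 genes, while the groups overlap for Rax, Otx1 and Otx2, and Fezf2 had 0 counts in both FLAG-Lhx1-mt embryos (open symbols).

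The other genes of the eye field were low. Lhx2, a LIM homeobox gene of eye and forebrain, had 93 and 45 counts in the FLAG-Lhx1 embryos, or 3.55 and 2.29 CPM. In the FLAG-Lhx1-mt embryos it had 20 and 25 counts, or 0.859 and 0.799 CPM. The groups did not overlap, and the log2 fold of 1.82 ± 0.46 (SE) was 1.43 without FLAG-Lhx1 replicate 1. Pax6, a paired-box and homeobox gene of eye and brain, had 3.21 CPM in each FLAG-Lhx1 embryo, against 1.55 and 0.799 CPM in the FLAG-Lhx1-mt embryos. Its log2 fold was 1.47 ± 0.44 (SE), with 1.99 on leaving out FLAG-Lhx1-mt replicate 1 and 1.04 on leaving out replicate 2. Rax, the retina and anterior neural fold homeobox gene, had 51 and 10 counts in the FLAG-Lhx1 embryos and 2 and 26 counts in the FLAG-Lhx1-mt embryos. That is 1.95 and 0.509 CPM against 0.0859 and 0.831 CPM. FLAG-Lhx1 replicate 2 was below FLAG-Lhx1-mt replicate 2, so the groups overlapped.

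The Rax log2 fold of 1.38 ± 0.81 (SE) rested on single embryos: leaving out FLAG-Lhx1 replicate 1 gave 0.07, and leaving out FLAG-Lhx1-mt replicate 2 gave 3.77. Between the 2 FLAG-Lhx1 embryos Rax differed 3.83-fold, the only one of the 10 genes to differ over 2-fold there. Of all tested genes, at any level, 8.73% differed that much between these embryos. Between the FLAG-Lhx1-mt embryos Rax differed 9.67-fold and Foxd4 3.02-fold, where 12.0% of all tested genes differed over 2-fold. Raxos1, on the opposite strand, shares 27.4% of the exon bases of Rax, so part of its low counts may belong to that gene, which itself had 0 to 3 counts per embryo. Lhx2 (ENSMUSG00000000247) lies on chromosome 2 at 38339281 to 38369733 and Pax6 (ENSMUSG00000027168) on chromosome 2 at 105668900 to 105697364.

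The zinc finger and forkhead genes had 0 to 18 counts in FLAG-Lhx1-mt embryos. Fezf1 had 153 and 162 counts in the FLAG-Lhx1 embryos, or 5.84 and 8.24 CPM, and 5 and 7 counts in the FLAG-Lhx1-mt embryos, or 0.215 and 0.224 CPM. The FLAG-Lhx1-mt levels were little above the value of 3 counts, and the log2 fold was 4.97 ± 0.45 (SE), or 31.3-fold. Fezf2, the paralog of Fezf1, had 12 and 18 counts in the FLAG-Lhx1 embryos but none in either FLAG-Lhx1-mt embryo (0 and 0). It was at least 11.9-fold higher if the FLAG-Lhx1-mt embryos held up to 3 counts together. Foxd4 had 10.5 and 8.80 CPM in the FLAG-Lhx1 embryos against 0.773 and 0.256 CPM, from 18 and 8 counts, in the FLAG-Lhx1-mt embryos. Its log2 fold of 4.28 ± 0.43 (SE) became 5.21 when FLAG-Lhx1-mt replicate 1 was left out and 3.62 when replicate 2 was. Fezf1 (ENSMUSG00000029697) lies on chromosome 6 at 23245044 to 23248362, Fezf2 (ENSMUSG00000021743) on chromosome 14 at 12342094 to 12348189 and Foxd4 (ENSMUSG00000051490), which has a single exon, on chromosome 19 at 24899236 to 24901197.

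The OTX genes overlapped between the groups. Otx2 had 63.7 and 56.1 CPM in the FLAG-Lhx1 embryos and 57.7 and 83.2 CPM in the FLAG-Lhx1-mt embryos. Both FLAG-Lhx1 values fell near the lower FLAG-Lhx1-mt value, and the log2 fold was -0.23 ± 0.18 (SE), with 0.04 without FLAG-Lhx1-mt replicate 2. Otx1 had 1.68 and 2.24 CPM in the FLAG-Lhx1 embryos against 1.55 and 1.76 CPM, a log2 fold of 0.24 ± 0.44 (SE). Each embryo held only 36 to 55 counts of Otx1, which leaves this difference imprecise. Otx2 (ENSMUSG00000021848) lies on chromosome 14 at 48657677 to 48673819 and Otx1 (ENSMUSG00000005917) on chromosome 11 at 21994764 to 22002897.

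Over the 10 genes, 7 were higher in both FLAG-Lhx1 embryos than in either FLAG-Lhx1-mt embryo, where 26.4% of all tested genes were. By edgeR's test 6 of them were called higher (Hesx1, Six3, Fezf1, Fezf2, Foxd4 and Lhx2) and 0 lower, where 2.62% of the tested genes were called higher and 3.55% lower. Nothing is read from these counts, since the genes were chosen with this contrast known. All 10 genes passed the count filter, but Fezf1, Fezf2, Foxd4 and Rax did not reach its level of 0.414 CPM in both FLAG-Lhx1-mt embryos. Lhx2 was no longer called once FLAG-Lhx1 replicate 1 was left out, and Fezf2 could not be tested without FLAG-Lhx1 replicate 2. Pax6 was not called, and Otx2 and Otx1 were not called either. Rax was not called with all 4 embryos, but was called without FLAG-Lhx1-mt replicate 2.

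**Figure D2:**
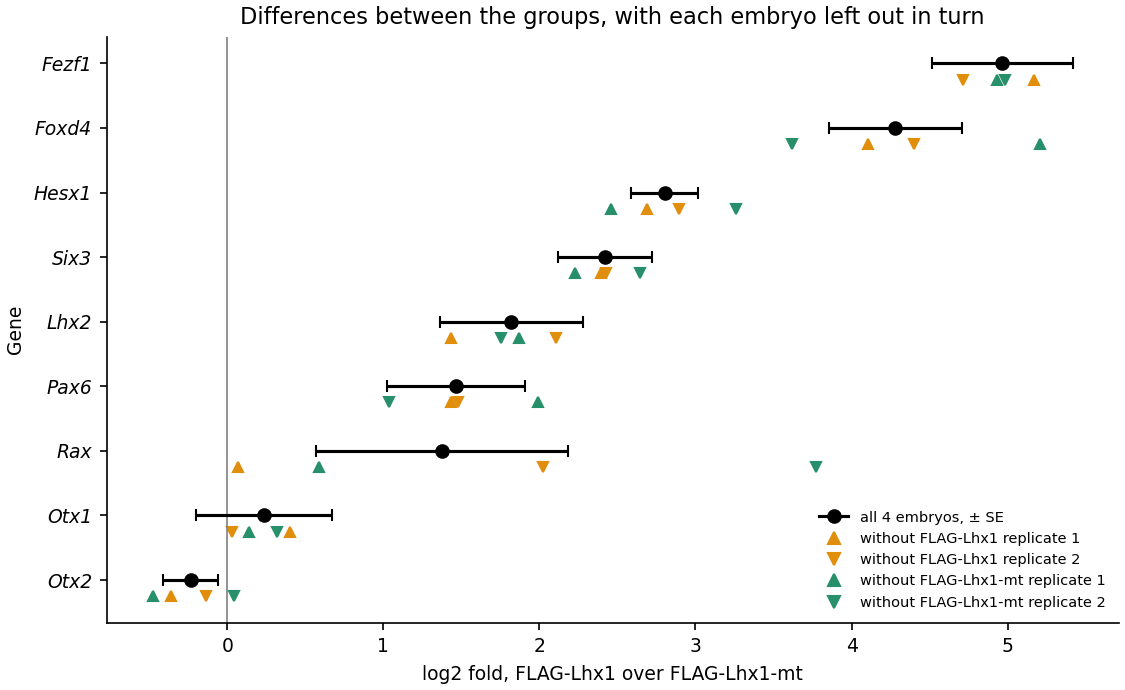
Log2 fold of FLAG-Lhx1 over FLAG-Lhx1-mt for 9 of the genes, with all 4 embryos (black, ± SE) and with each embryo left out in turn (triangles); Fezf2, with 0 counts in FLAG-Lhx1-mt, has no fold of exact size and is not drawn. The triangles of Fezf1 and Six3 stay within the SE of the black points, and those of Hesx1 run beyond it, from 2.46 to 3.26. Those of Rax spread from 0.07 to 3.77, and those of Otx2 lie on both sides of 0.

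Set per kilobase of annotated exon, so that genes can be compared, the order of the levels changed between the groups. In FLAG-Lhx1 embryos Hesx1 led with 102 ± 8.19 CPM per kilobase (SD, n = 2), followed by Otx2 at 14.2 ± 1.28, Foxd4 at 4.91 ± 0.60, Fezf1 at 2.92 ± 0.71 and Six3 at 1.85 ± 0.01 CPM per kilobase. Lhx2 came next at 0.665 ± 0.20 CPM per kilobase and Otx1 at 0.361 ± 0.073 CPM per kilobase. The embryos of these 7 genes did not overlap between neighbours in the order. Pax6 (0.274 CPM per kilobase), Fezf2 (0.225) and Rax (0.210) came last, and their embryos overlapped.

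In FLAG-Lhx1-mt embryos Otx2 and Hesx1 led and overlapped, at 16.7 ± 4.27 and 14.6 ± 5.65 CPM per kilobase (SD, n = 2). Six3, Otx1 and Foxd4 followed at 0.342, 0.305 and 0.262 CPM per kilobase and overlapped each other. Lhx2, Pax6, Fezf1 and Rax lay at 0.189, 0.100, 0.0910 and 0.0784 CPM per kilobase, and Fezf2 was at 0. The exon length used is the union over annotated transcripts, which is 11694 bases for Pax6 and 1248 bases for Hesx1, and lowers genes with many isoforms.

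The ratio of 2 genes within a library does not depend on how libraries are scaled. Per length, Hesx1 was 7.17 and 7.27 times the level of Otx2 in the FLAG-Lhx1 embryos, and 0.776 and 0.943 times in the FLAG-Lhx1-mt embryos. The ratio of Six3 to Otx2 was 0.122 and 0.140 in FLAG-Lhx1 and 0.0214 and 0.0199 in FLAG-Lhx1-mt. Both ratios were close within a group and did not overlap between groups. Hesx1 and Six3 were chosen with this contrast known, so the ratios restate their levels and add no support. The ratio of Otx1 to Otx2 was 0.0205 and 0.0311 in FLAG-Lhx1 and 0.0209 and 0.0164 in FLAG-Lhx1-mt, so there the groups overlapped. Otx2 made up 11.2% and 11.0% of the summed length-scaled level of the 10 genes in FLAG-Lhx1 and 53.2% and 49.7% in FLAG-Lhx1-mt. Hesx1 made up 80.3% and 79.7% in FLAG-Lhx1 and 41.3% and 46.9% in FLAG-Lhx1-mt, so both shares moved while the level of Otx2 itself overlapped.

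The genes that lie beside these 10 were looked up to see whether the differences extended along the chromosome. The nearest protein-coding gene on each side gave 20 neighbours, of which 18 were tested. Of these, 1 was higher and 1 lower in FLAG-Lhx1, and 16 did not pass edgeR's test (11.1% called, against 6.17% of all tested genes). Cadps, a regulator of vesicle release that lies 24.4 kb from Fezf2, was at 4.39 and 7.17 CPM against 2.28 and 1.18 CPM (log2 fold 1.75 ± 0.40, SE, edgeR adjusted p = 0.0176). Leaving out FLAG-Lhx1 replicate 2 lost this call, at a log2 fold of 1.37. Grp, which encodes gastrin-releasing peptide and lies beside Rax, was lower, at 0.191 and 0.305 CPM against 2.36 and 2.20 CPM (-3.21 ± 0.58, edgeR adjusted p = 0.00505). Cplx4, on the other side of Rax, stayed below the count filter, and Gm49355, beside Fezf2, was not analysed here.

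The neighbours that did not pass had log2 folds from -0.89 to 0.83. Beside Hesx1, Appl1 (0.34 ± 0.15, SE) and the FGF signalling inhibitor gene Il17rd (-0.89 ± 0.26, edgeR adjusted p = 0.0529) went in opposite directions. Six2, a homeobox gene 55.0 kb from Six3, had a log2 fold of -0.58 ± 0.60 (SE), with 0.509 to 1.66 CPM over the 4 embryos. Cadps2, the paralog of Cadps, lies 14.4 kb from Fezf1 and had a log2 fold of 0.55 ± 0.28 (SE). Of 8 annotated non-coding genes on the other strand, 4 were below the filter, 2 were not analysed here and 2 were tested. Six3os1, which overlaps Six3, was at 3.17 and 2.54 CPM against 1.33 and 1.37 CPM (log2 fold 1.08 ± 0.41, SE, edgeR adjusted p = 0.142), so the groups did not overlap but the test was not passed. Otx2os1 was at 1.34 and 1.12 CPM against 0.988 and 1.41 CPM (0.03 ± 0.51, SE, adjusted p = 0.982). Without a known strand setting, reads of Six3 and Six3os1 cannot be fully told apart.

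**Figure D3:**
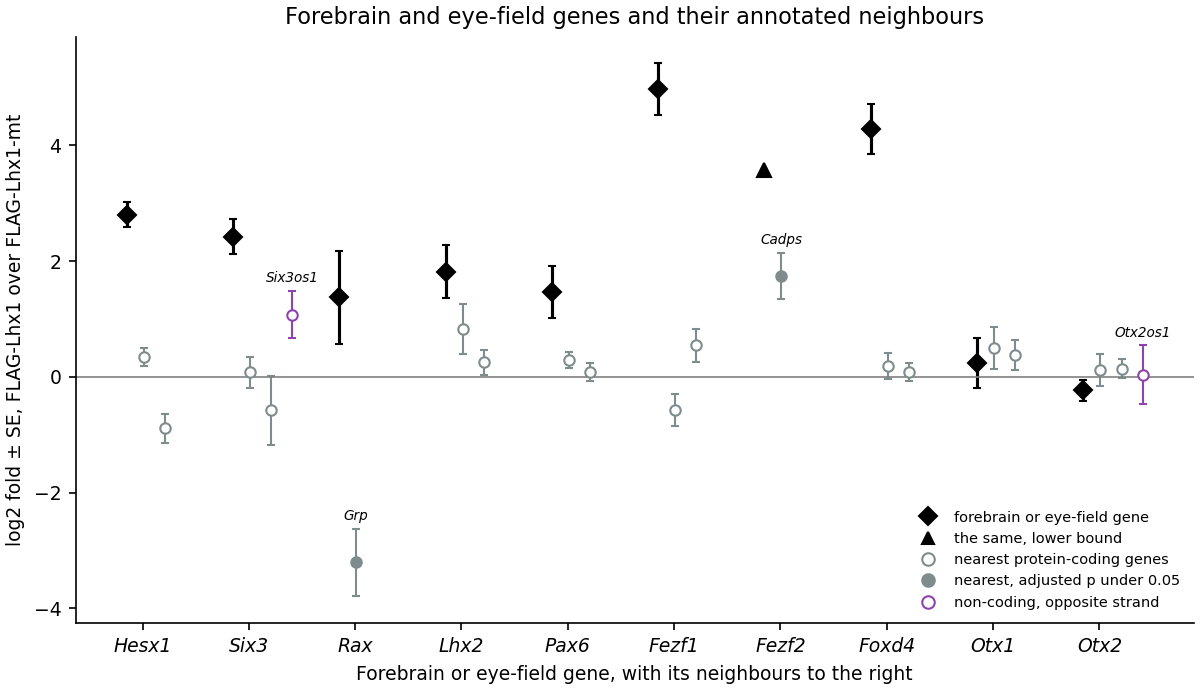
Log2 fold (± SE) of each forebrain or eye-field gene (black diamond, or triangle for the lower bound of Fezf2) and, to its right, of its tested neighbours. Of the 18 tested neighbours, 16 lie between -0.89 and 0.83; the filled circles are Cadps beside Fezf2, which was higher, and Grp beside Rax, which was lower, and purple circles are the non-coding genes Six3os1 and Otx2os1.

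A list of 23 other genes of the forebrain, eye and anterior neural ridge held 13 that could be tested. Of these 3 were higher in FLAG-Lhx1 and none lower (23.1% called, median log2 fold 0.66, against 6.17% and 0.0089 over all tested genes). They were Shisa2, which restrains WNT and FGF receptors (51.6 ± 5.15 against 16.5 ± 3.28 CPM, SD, n = 2 each; edgeR adjusted p = 0.000119), the secreted WNT antagonist gene Sfrp1 (126 ± 1.08 against 61.6 ± 13.6 CPM; adjusted p = 0.00203) and the zinc finger gene Sp8 (173 and 165 against 118 and 83.0 CPM; adjusted p = 0.0159). The call of Sp8 was lost without FLAG-Lhx1-mt replicate 2 (log2 fold 0.50). The median was 0.26 without FLAG-Lhx1 replicate 1. Of the 10 that did not pass, Fgf17 (log2 fold -1.49 ± 0.69, SE), Fgf15 (-0.70 ± 0.23) and Dlx5 (-0.14 ± 0.45) had negative folds, and the others positive ones. Sfrp1 and Sp8 are also expressed outside the head, and RNA of whole embryos does not tell where Shisa2, Sfrp1 or Sp8 was expressed. The list's summed level was 386 to 402 CPM in FLAG-Lhx1 and 224 to 238 CPM in FLAG-Lhx1-mt. Genes of the regional forebrain and eye that come on later were barely detected: Six6, Vax1, Vax2, Nkx2-1, Nkx2-4, Barhl2, Mab21l2 and Wnt8b, with 0 to 16 counts in any embryo, stayed below the filter. None of the 23 was at 0 in all embryos.

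Genes of more posterior neural tissue were also higher. Of 13 tested midbrain and hindbrain genes 4 were higher and none lower (30.8% called, against 6.17% of all tested genes, median log2 fold 1.36). Among them were the hindbrain gene Hoxa2 (2.48 and 5.14 against 1.03 and 0.927 CPM, edgeR adjusted p = 0.0196), the anterior hindbrain gene Gbx2 (27.2 and 39.4 against 17.1 and 4.98 CPM, adjusted p = 0.0199) and Irx3, named after its value was seen (adjusted p = 0.0228; lost without FLAG-Lhx1 replicate 1, log2 fold 1.99). DESeq2 did not call Gbx2 (adjusted p = 0.247), and Hoxa2 was no longer called once FLAG-Lhx1 replicate 2 was left out (log2 fold 1.35). Leaving out FLAG-Lhx1-mt replicate 1 gave a log2 fold of 2.73 for Gbx2, and leaving out replicate 2 gave 0.94. The list's summed level was 84.8 to 112 CPM in FLAG-Lhx1 and 23.2 to 53.8 CPM in FLAG-Lhx1-mt, and its part in the forebrain differences was not tested. The midbrain and hindbrain genes En1, En2, Wnt1, Pax2 and Pax5 were below the filter, with 0 to 12 counts per embryo.

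Of 13 tested neural progenitor genes of the whole axis 4 were higher and none lower (30.8% called, against 6.17% of tested genes, median 0.24). Fabp7, a fatty acid binding protein gene of neural progenitors (17.3 ± 3.99 against 6.73 ± 0.11 CPM, SD, n = 2 each, edgeR adjusted p = 0.00432), and Sox2 (adjusted p = 0.0144) were among them, as was Sox1, named after its value was seen (adjusted p = 0.0264; lost without FLAG-Lhx1 replicate 2, log2 fold 1.77). Sox2 is also an epiblast gene, and leaving out FLAG-Lhx1 replicate 1 lost its call (log2 fold 0.75) and gave a list median of -0.05. The summed level of this list was 256 to 303 CPM in FLAG-Lhx1 and 190 to 196 CPM in FLAG-Lhx1-mt, and its part in the forebrain differences was not tested. Of 10 tested genes of the caudal epiblast and tail bud, 1 was higher and 1 lower (20% called, against 6.17% of all tested genes, median 0.34, but negative when replicate 2 of either group was left out, at -0.47 for FLAG-Lhx1 and -0.07 for FLAG-Lhx1-mt). These were Nkx1-2, a homeobox gene of the caudal lateral epiblast (log2 fold 1.58 ± 0.34, SE, edgeR adjusted p = 0.0144), and T, which encodes brachyury (-0.70 ± 0.20, adjusted p = 0.0481). DESeq2 did not call Nkx1-2 (adjusted p = 0.215), whose log2 fold moved to 2.65 on leaving out FLAG-Lhx1-mt replicate 1 and to 0.94 on leaving out replicate 2. The call of T was lost under 4 of 9 other settings, among them the fits lacking FLAG-Lhx1-mt replicate 1 (-0.33) and FLAG-Lhx1 replicate 2 (-0.50). The summed level of the caudal list overlapped, at 194 to 209 CPM in FLAG-Lhx1 and 185 to 299.8 CPM in FLAG-Lhx1-mt. Fgf17 is on both the caudal list and the list of other forebrain genes.

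**Figure D4:**
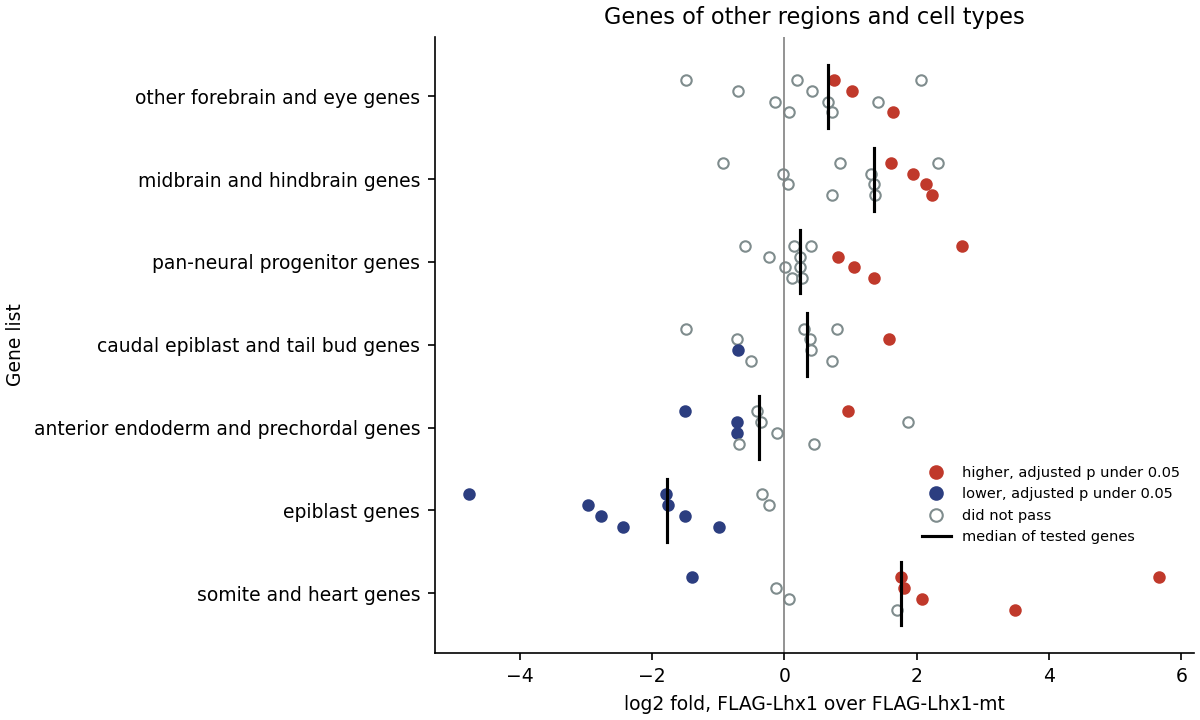
Log2 fold of FLAG-Lhx1 over FLAG-Lhx1-mt for every tested gene of 7 lists, with filled symbols at an edgeR adjusted p under 0.05 and a black line at the median of each list. Medians were 0.66 for other forebrain and eye genes, 1.36 for midbrain and hindbrain genes, 1.76 for somite and heart genes and -1.77 for epiblast genes.

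Otx2 and Hesx1 are also on in the anterior endoderm that underlies the head, and Otx2 in the epiblast, so the genes of those tissues were counted beside them. Of 10 tested genes of the anterior endoderm and prechordal plate, 1 was higher and 3 lower (40% called, against 6.17% of all tested genes). The median log2 fold of the list was -0.39. The lower genes were Cyp26a1, which breaks down retinoic acid (48.6 ± 7.74 against 138 ± 37.0 CPM, SD, n = 2 each, edgeR adjusted p = 0.000283), and the secreted antagonist genes Dkk1 (adjusted p = 0.0196) and Cer1 (adjusted p = 0.0283). The WNT receptor gene Fzd5, named after its value was seen, was the higher one (0.96 ± 0.25, SE, adjusted p = 0.0339). The calls of Dkk1, Cer1 and Fzd5 were each lost with 1 embryo left out: for Dkk1 it was either FLAG-Lhx1 embryo (-0.80 without replicate 1, -0.64 without replicate 2), for Cer1 FLAG-Lhx1 replicate 2 (-0.45), and for Fzd5 replicate 1 of either group (0.81 for FLAG-Lhx1, 0.65 for FLAG-Lhx1-mt). The median was 0.03 without FLAG-Lhx1-mt replicate 2. The list's summed level was 185 to 244 CPM in FLAG-Lhx1 and 318 to 404 CPM in FLAG-Lhx1-mt. Its part in the levels of Hesx1 and Otx2 was not tested.

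Genes that mark the stage of an embryo were counted too. Of 10 genes of the epiblast, which fade as gastrulation proceeds, 8 were lower and none higher (80% called, median -1.77), led by the amino acid transporter gene Slc7a3 (-2.78 ± 0.16, SE, edgeR adjusted p = 3.65e-07), the NODAL co-receptor gene Tdgf1 (-4.76 ± 0.32, adjusted p = 8.57e-07) and Utf1 (-2.97 ± 0.33, adjusted p = 8.58e-05). Their summed level was 442 to 577 CPM in FLAG-Lhx1 and 1082 to 1457 CPM in FLAG-Lhx1-mt, and none was at 0 in all embryos. Of 9 tested somite and heart genes, which come on as gastrulation ends, 5 were higher and 1 lower (66.7% called, median 1.76). Beside the epiblast list and this list, 6.17% of all tested genes were called. The retinoic acid synthesis gene Aldh1a2 (5.67 ± 0.38, adjusted p = 8.57e-07) and the mesodermal forkhead genes Foxc2 (1.76 ± 0.29, adjusted p = 0.00244) and Foxc1 (1.81 ± 0.30, adjusted p = 0.00263) were higher. So were Pax3 (adjusted p = 0.00551) and Tcf15 (adjusted p = 0.0294), named after their values were seen, and the call of Tcf15 was lost on leaving out either FLAG-Lhx1 embryo (1.92 and 2.21). The heart gene Myl7, named after its value was seen, was lower (-1.39 ± 0.24, adjusted p = 0.00374; -0.81 without FLAG-Lhx1-mt replicate 1). The genes that did not pass were the somite gene Meox1 (1.71 ± 0.74, SE) and the heart genes Hand2 (0.06 ± 0.43) and Actc1 (-0.12 ± 0.35). None of the heart genes Myl7, Hand2 and Actc1 was called higher. The summed level of the 13 listed genes overlapped, at 108 to 135 CPM in FLAG-Lhx1 and 69.7 to 136 CPM in FLAG-Lhx1-mt. Uncx, Nkx2-5, Tbx5 and Tnnt2 were below the filter. The part of these stage markers in the levels of the forebrain genes was not tested.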

How the data were processed

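RNA was sequenced from 4 individual embryos by Geo-seq, made for small amounts of tissue, after 10 rounds of cDNA amplification, per the labels' protocols. The labels name no molecular identifiers, so amplified copies may be counted more than once, and the values given for 3 counts cover counting error only. The deposited values are whole-number counts per Ensembl gene, which the authors left unnormalized; STAR, featureCounts of Subread, and the builds GRCm38 and mm10 are named in the submitters' processing notes. Not given in the sources used here are versions, annotation release and strand setting.

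Symbols, positions and exon lengths came from GENCODE release M21 on GRCm38, which held 37693 of 39179 IDs. Counts were filtered with filterByExpr (minimum count 10, minimum total 15), scaled by TMM and compared in edgeR 4.0.16 (R 4.3.3) by the quasi-likelihood F test in a model with group only, adjusted by Benjamini-Hochberg over 15822 genes. SE was computed as the absolute log2 fold divided by the root of the F statistic. The p-values rest on 2 embryos per group, with 13.4 prior degrees of freedom borrowed from other genes. Across genes, log2 CPM correlated at 0.982 between both FLAG-Lhx1 embryos and at 0.978 between both FLAG-Lhx1-mt embryos. On simulated data for this comparison, with 15822 genes, 58% of the genes given a log2 fold of 1 were recovered and 91% at a log2 fold of 2, and 12 of 161 calls were false. Each simulated gene varied only by the trend of spread with level, and folds went only to genes above a count limit that Fezf2 did not reach. These rates therefore do not carry over to genes with fewer counts or a wider spread between embryos. The alternatives were upper-quartile scaling, DESeq2 1.42.0, no count filter, offsets for transcript length and GC content, a replicate block and each embryo left out.

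The 10 genes and the lists were chosen with earlier results of these data known. Named beside them are up to 3 called genes of each list by p, the called flanking genes and the opposite-strand non-coding genes that were tested. Appl1, Il17rd, Six2, Cadps2, Fgf15, Fgf17, Dlx5, Meox1, Hand2 and Actc1 were named after their values were seen. Some genes of the lists are counted but not reported here by name. Divergent genes were those starting within 5000 bases. Promoter sequences came from RefSeq (GRCm38.p6), which held 8 of the 10 genes.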

Additional observations from a re-analysis of the deposited data

How the results depend on the processing

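Over all tested genes edgeR called 976, 415 higher and 561 lower. Leaving out 1 embryo gave 521 to 1648 calls: 628 and 521 without FLAG-Lhx1 replicates 1 and 2, and 1648 and 1553 without FLAG-Lhx1-mt replicates 1 and 2. Upper-quartile scaling called 472 higher and 395 lower, so 54.4% of its calls were higher, against 42.5%. Of the 10 forebrain genes, 5 to 7 were called higher over the settings tried, from which nothing is read since this contrast chose them; DESeq2 gave no adjusted p for Fezf2 and Rax. With 1 embryo left out, the log2 fold of Otx2 ran from -0.48 without FLAG-Lhx1-mt replicate 1 to 0.042 without replicate 2, and the cause was not tested. With 1 embryo left out, 3 to 5 of the other forebrain genes were called, 2 to 5 of the pan-neural genes, 1 to 2 of the caudal genes, 2 to 6 of the anterior endoderm genes and 1 to 3 of the flanking genes. These counts pool genes called higher with genes called lower, and lower ones were among the other forebrain and the pan-neural genes. DESeq2 called 2 midbrain and hindbrain genes and 1 caudal gene, upper-quartile scaling 1 caudal gene, and the length and GC offsets 1 caudal and 2 anterior endoderm genes. A lone embryo in a group was assumed to vary like those of the other. Same-numbered embryos did not deviate together (correlation 0.0156), and a replicate block gave 1138 calls, with 7 of the 10 genes called higher, Pax6 now among them (log2 fold 1.51). Pax6 was also called with no count filter (1.41). Its log2 fold also moved with single embryos, to 1.99 without FLAG-Lhx1-mt replicate 1 and to 1.04 without replicate 2. The motif counts per gene were the same with only the bases before the start. At this depth Fezf2, with 0 counts in both FLAG-Lhx1-mt embryos, has only a lower bound for its fold.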

Other observations

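Paralogs of the 10 genes were counted after their values were seen, as 27 genes related to Six3, to Lhx2, to Foxd4, to Pax6 or to Otx2, leaving out Lhx1. Of 15 that passed the count filter 2 were higher in FLAG-Lhx1 and 1 lower by edgeR's test, and 12 did not pass (20% called, against 6.17% of all tested genes). Isl1, a LIM homeobox gene of cardiac progenitors and motor neurons, was at 20.8 and 23.0 CPM against 11.4 and 3.99 CPM (log2 fold 1.52 ± 0.34, SE, edgeR adjusted p = 0.0164). By DESeq2 it was not called (adjusted p = 0.187), and its log2 fold became 2.45 when FLAG-Lhx1-mt replicate 1 was left out and 0.92 when replicate 2 was. Pax3, a paired-box gene of dorsal neural tube and somites, was at 1.68 and 3.05 CPM against 0.301 and 0.128 CPM (3.48 ± 0.64, adjusted p = 0.00551). Foxd3, a forkhead gene of epiblast and neural crest, was lower, at 0.229 and 0.204 CPM against 0.558 and 3.71 CPM. The 2 FLAG-Lhx1-mt embryos differed widely in it, and its call was lost without FLAG-Lhx1-mt replicate 2 (log2 fold -1.35). Pax3 is also on the list of somite genes.

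Among relatives of Six3, 4 were tested, with a median log2 fold of 0.010. None passed edgeR's test, and Six4 and Six5 had log2 folds of 0.10 and -0.08. Crx, the photoreceptor relative of Otx2, was at 0.611 and 0.763 CPM against 0.258 and 0.0959 CPM, from 16 and 15 against 6 and 3 counts (log2 fold 1.98, edgeR adjusted p = 0.167).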
